A study of Caenorhabditis elegans with 10 samples.

Results

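The genes of the worm mitochondrial genome were followed through sexual maturation in both sexes of Caenorhabditis elegans. They were taken as every row of the deposited count tables whose sequence name begins with MTCE, which gave 36 of the 46589 genes listed: 12 protein genes, 2 ribosomal RNA genes and 22 transfer RNA genes. RNA was read from whole animals carrying a him-5 mutation, which raises the share of males among the progeny and which every library of the series carries. There was 1 male and 1 hermaphrodite library in each of 5 windows after hatching, 10 libraries in all: late L3 at 30 to 34 h, early L4 at 36 to 40 h, late L4 at 42 to 46 h, and young adults at both 48 to 52 h and 54 to 58 h. The animals grew at 20 °C on NGM plates with OP50 bacteria, and nothing in the labels says how the sexes were separated, how many animals were pooled or whether any window was sampled again. The p-values below therefore measure the spread between these libraries, and the spread within 1 sex includes any change between windows.

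Mitochondria keep a small circular genome of their own, which encodes a handful of subunits of the respiratory chain and the ATP synthase together with the ribosomal and transfer RNAs used to translate them. The other subunits, all proteins of the mitochondrial ribosome and the enzymes that copy and transcribe the mitochondrial DNA are made from nuclear genes and imported. In C. elegans the oocyte is loaded with maternal mitochondria and their DNA, whereas the mitochondria brought in by the sperm are destroyed after fertilization. Many animals make long mitochondrial precursors that are cut at the transfer RNAs, so that neighbouring genes can share a precursor and still differ in the level of the mature RNA.

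In the annotation (WBcel235, Ensembl release 115) all 36 genes lie on 1 strand of the mitochondrial DNA. Several overlap their neighbour by a few bases, as ND6 overlaps ND4L by 1 base and ND1 overlaps ATP6 by 2 bases. Protein genes carry here the names of the annotation and RefSeq: ND1 to ND6 and ND4L for subunits of complex I, CYTB for cytochrome b of complex III, COX1 to COX3 for the core of complex IV, and ATP6 for the membrane subunit a of the ATP synthase. The 10 libraries held 8189325 to 27907544 reads on genes, of which 10050912 in total fell on the mitochondrial genome. The male library of 54 to 58 h had the highest share of reads without an alignment, 25.4% of the reads in its table.

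Mitochondrial RNA took a share of the hermaphrodite libraries that was highest in early L4 and lowest in young adults, whereas the male share was highest in late L4. In males the mitochondrial genome received 6.61, 7.58, 10.9, 6.22 and 8.97% of gene reads in the 5 windows in order, against 7.06, 11.1, 5.79, 3.9 and 3.39% in hermaphrodites. The hermaphrodite share was the higher in the first 2 windows and the male share in the last 3, by 1.88, 1.6 and 2.65 times. Averaged over the windows the log2 ratio of males to hermaphrodites was 0.47 ± 0.79 (SD, n = 5 windows), and the exact two-sided sign-flip permutation test gave p = 0.25 where 0.0625 is the smallest p that 5 windows allow. In these bulk samples, fewer cells of a type and less RNA per cell cannot be told apart.

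The protein genes alone varied little among males. They took 0.791, 0.856, 0.82, 0.729 and 0.844% of gene reads in males, against 0.885, 1.29, 0.667, 0.502 and 0.367% in hermaphrodites. The lowest male library stood above the 3 later hermaphrodite libraries and below the 2 earlier ones. The male mean was 0.808 ± 0.0507% and the hermaphrodite mean 0.742 ± 0.361% (SD, n = 5 libraries each), with a mean log2 ratio of 0.26 and an exact sign-flip permutation p of 0.5.

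The ribosomal RNA genes made up most mitochondrial reads in every library. They took 5.82, 6.72, 10.1, 5.49 and 8.13% of gene reads in males, against 6.17, 9.85, 5.12, 3.39 and 3.02% in hermaphrodites. Per read on a protein gene there were 7.36, 7.86, 12.3, 7.53 and 9.62 ribosomal RNA reads in males, against 6.97, 7.65, 7.68, 6.76 and 8.23 in hermaphrodites. Males had the larger ratio in 5 of 5 windows, by a mean log2 of 0.23 ± 0.26 (SD). The exact sign-flip permutation p was 0.0625, the smallest that 5 windows allow, and 0.375 after Benjamini-Hochberg adjustment over the 6 library-level quantities compared. The male library of 42 to 46 h set much of this size, as without that window the mean was 0.12. How RNA was selected for these libraries is not given in the sources used here, and its part in this ratio was not tested. Nuclear ribosomal RNA went another way: it took 4.61, 5.22, 5.01, 8.61 and 4.87% of gene reads in males, against 5.34, 6.72, 9.62, 11 and 11.3% in hermaphrodites. With nuclear ribosomal RNA taken out of the total, the mean log2 ratio of the whole mitochondrial share was 0.42.

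**Figure D1:**
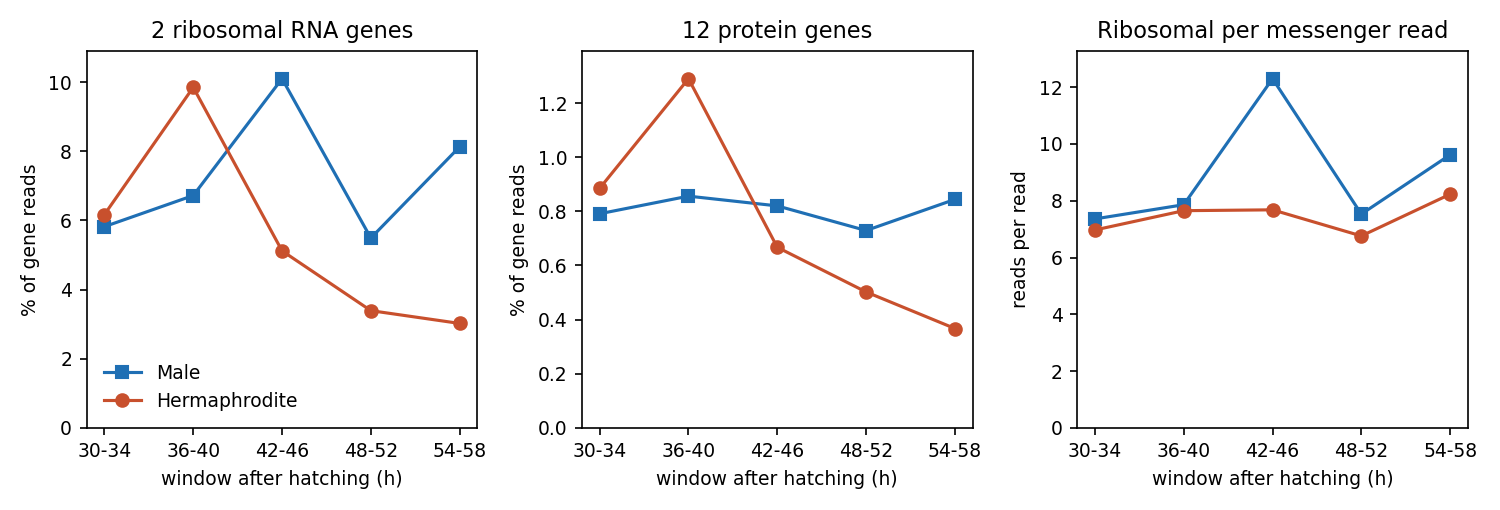
Share of gene reads (%) on the 2 mitochondrial ribosomal RNA genes (left) and the 12 protein genes (middle), and ribosomal RNA reads per protein gene read (right), by window after hatching (h), with 1 point per library for males (squares) and hermaphrodites (circles). The hermaphrodite shares peak at 36 to 40 h and end below every male library, and the male library of 42 to 46 h has the highest ratio, 12.3.

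The transfer RNA genes were almost unread. Of the 22, 19 had no read in 10 libraries, and the other 3 had 4 reads in total, at most 2 in 1 library. Their level and any difference between the sexes were not detectable in these counts; the length of the RNA fragments that the libraries kept is not given in the sources used here. None of the 22 reached 1 CPM (the read count per scaled library total) in 2 libraries, so 14 of the 36 genes, the 12 protein genes and both ribosomal RNA genes, entered the tests.

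Per length, the protein genes spanned a wide range and kept nearly the same order in every library. Levels were expressed as reads per kb of annotated gene and as a percent of the sum over the 12 protein genes (mean ± SD over 10 libraries). COX1 came first with 28.0 ± 2.55% and COX3 followed with 27.1 ± 1.16%, but COX1 was above COX3 in only 6 of 10 libraries. CYTB with 19.2 ± 2.05%, COX2 with 7.43 ± 0.729% and ND1 with 4.54 ± 0.592% each stood above the next gene in all 10 libraries. ND5 (3.56 ± 0.37%), ATP6 (3.48 ± 0.509%) and ND4 (3.31 ± 0.362%) did not separate, since ND5 was above ATP6 in 4 libraries and ATP6 above ND4 in 7. At the low end were ND6 with 1.37 ± 0.238%, ND4L with 0.937 ± 0.216%, ND3 with 0.806 ± 0.167% and ND2 with 0.268 ± 0.0504%. The mean of COX1 was 105 times that of ND2 per kb, although both lie on the same strand. The ribosomal RNA genes were far above all of them, with medians over the libraries of 35500 CPM per kb for the small and 36300 CPM per kb for the large RNA.

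**Figure D2:**
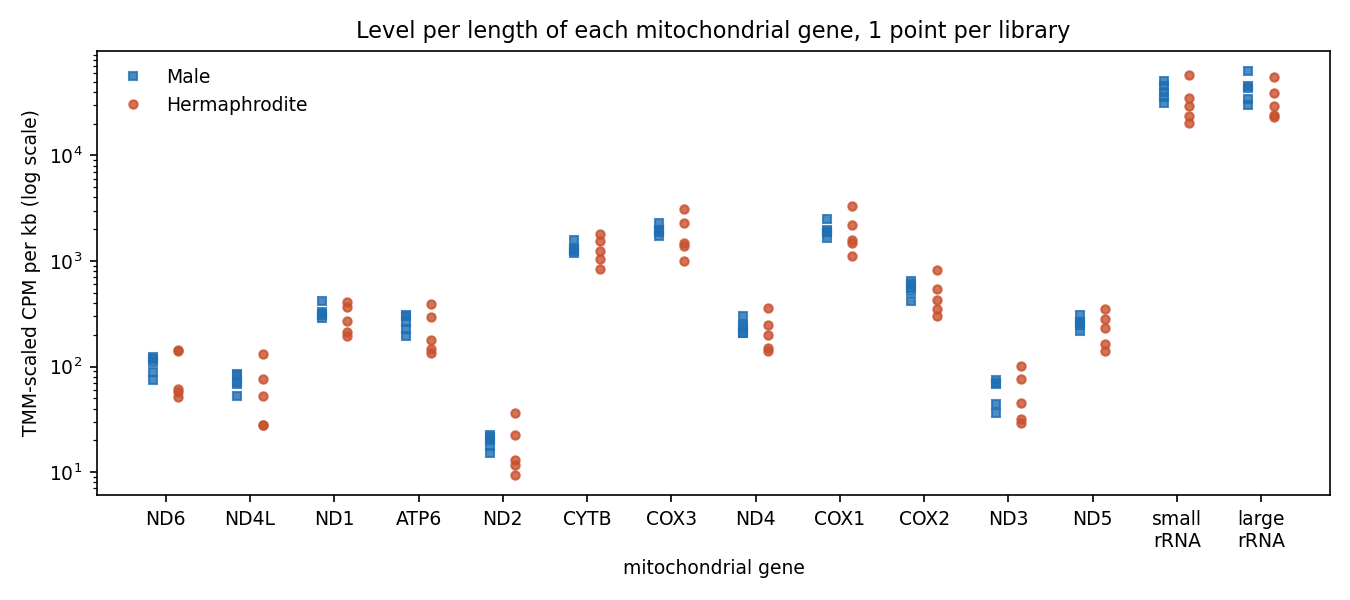
Level per length of each of the 14 mitochondrial genes that were tested, as TMM-scaled CPM per kb on a log axis, with 1 point per library for males (squares) and hermaphrodites (circles). The ribosomal RNA genes have medians of 35500 and 36300, COX1, COX3 and CYTB lie highest among the protein genes, and ND2 lies lowest.

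Across the course the mitochondrial genes peaked in the same window in hermaphrodites and in several windows in males. On the scale used for the tests, CPM with TMM scaling, all 14 genes were highest in hermaphrodites at 36 to 40 h, and 11 were lowest there at 54 to 58 h. Males had 8 genes at their highest at 42 to 46 h, with the others spread over 36 to 40 h (COX1 and COX3), 48 to 52 h (ND2) and 54 to 58 h (ND6, ATP6 and COX2). The male library was below its hermaphrodite counterpart for 13 of 14 genes at 30 to 34 h (COX2 being the exception) and for 14 of 14 at 36 to 40 h. It was above for 14 of 14 in each of the 3 later windows. Because the order turned round after early L4, the ranges of the male and hermaphrodite libraries overlapped for every one of the 14 genes. None of these counts is given over all genes here, so whether they are particular to the mitochondrial genes cannot be told.

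Single windows have no replicate and are given without a test. The median log2 ratio of males to hermaphrodites over the 14 genes, on CPM + 1, was -0.36, -0.46, 0.64, 0.42 and 0.96 in the 5 windows, while that of all 15924 genes tested was 0.09, 0.23, 0.18, 0.13 and 0.2. At least 2-fold higher in males were 0, 0, 1, 2 and 6 of the 14 genes, beside 14.2, 22.9, 27.2, 31.1 and 33.3% of all genes. At least 2-fold lower in males was none of them in any window, beside 3.27, 5.44, 10.7, 22.6 and 25.6% of all genes.

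In the fits across all genes, no mitochondrial gene was called between the sexes over the whole course. With the window as a block, edgeR's quasi-likelihood test called 0 of 14 mitochondrial genes at a Benjamini-Hochberg adjusted p under 0.05, while 18.9% of all genes were called (15.3% higher and 3.56% lower in males). The log2 ratios ran from 0.07 for CYTB to 0.43 for ND4L with a median of 0.23, close to the median of 0.21 over all genes, and no gene had an unadjusted p under 0.05. DESeq2 and limma-voom also called 0 of the 14.

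In hermaphrodites most mitochondrial messenger RNAs fell with time relative to other RNA. The slope per 6 h step was negative for all 14 genes in hermaphrodites, and 11 passed edgeR's test, whereas 16.9% of all genes were called falling, 20.9% rising and 37.8% in either direction. The slopes ran from -0.26 for CYTB to -0.55 for ND4L on the log2 scale with a median of -0.32, where the median of all genes was -0.15. ND2 (adjusted p = 0.0535), the small ribosomal RNA (0.0686) and the large ribosomal RNA (0.12) did not pass. The count was 7 with RLE scaling and 7 with no filter. It was 0 without the hermaphrodite library of 54 to 58 h, 3 without that of 48 to 52 h, 7 without that of 42 to 46 h and 7 without the male library of 36 to 40 h.

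In males no slope was called. Their values lay between -0.05 for COX1 and 0.12 for ND4L per step, with a median of 0.04 beside -0.01 over all genes. edgeR called 0 of 14, none had an unadjusted p under 0.05, and DESeq2 and limma-voom called 0 as well; only 0.59% of all genes were called in this fit. The signs of COX1, COX2 and COX3 turned with the scaling, as RLE scaling gave them slopes of 0.01, 0.06 and 0.03.

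The difference between the slopes, male minus hermaphrodite, was positive for all 14 genes and ran from 0.25 for COX1 to 0.64 for ND4L per step, with a median of 0.34 beside 0.05 over all genes. It passed edgeR's test for 2 of 14, ND5 and ND4L, where 15.8% of all genes were called, 5.6% with the higher and 10.2% with the lower slope in males; 12 of 14 had an unadjusted p under 0.05. This count moved with the method: DESeq2 called 11 and limma-voom 12 of the 14. It fell to 0 without any 1 library other than those of 30 to 34 h, where it was 2 without the hermaphrodite and 4 without the male library. ND5 was called under no omission of a single library, and ND4L under 1 such omission, that of the late L3 males.

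In young adults males stood above hermaphrodites. With 2 libraries per sex, the log2 ratios ran from 0.43 for CYTB to 1.43 for ND4L. Their median was 0.72, beside 0.31 over all genes. Both male libraries were above both hermaphrodite libraries for 14 of 14 genes. That count is not given over all genes here, so whether it is unusual cannot be told. edgeR called 11 of 14 higher in males, where 62.5% of all genes were called, 33% higher and 29.4% lower. CYTB (adjusted p = 0.0628), COX1 (0.0783) and ND3 (0.11) did not pass. With the window as a block 6 were called, and DESeq2 called 4. Without the male library of 54 to 58 h only ND5 and the small ribosomal RNA were called, and without the hermaphrodite library of 54 to 58 h only ATP6, ND2 and ND4L. None of the 14 genes was called under all 4 omissions of a young adult library.

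**Figure D3:**
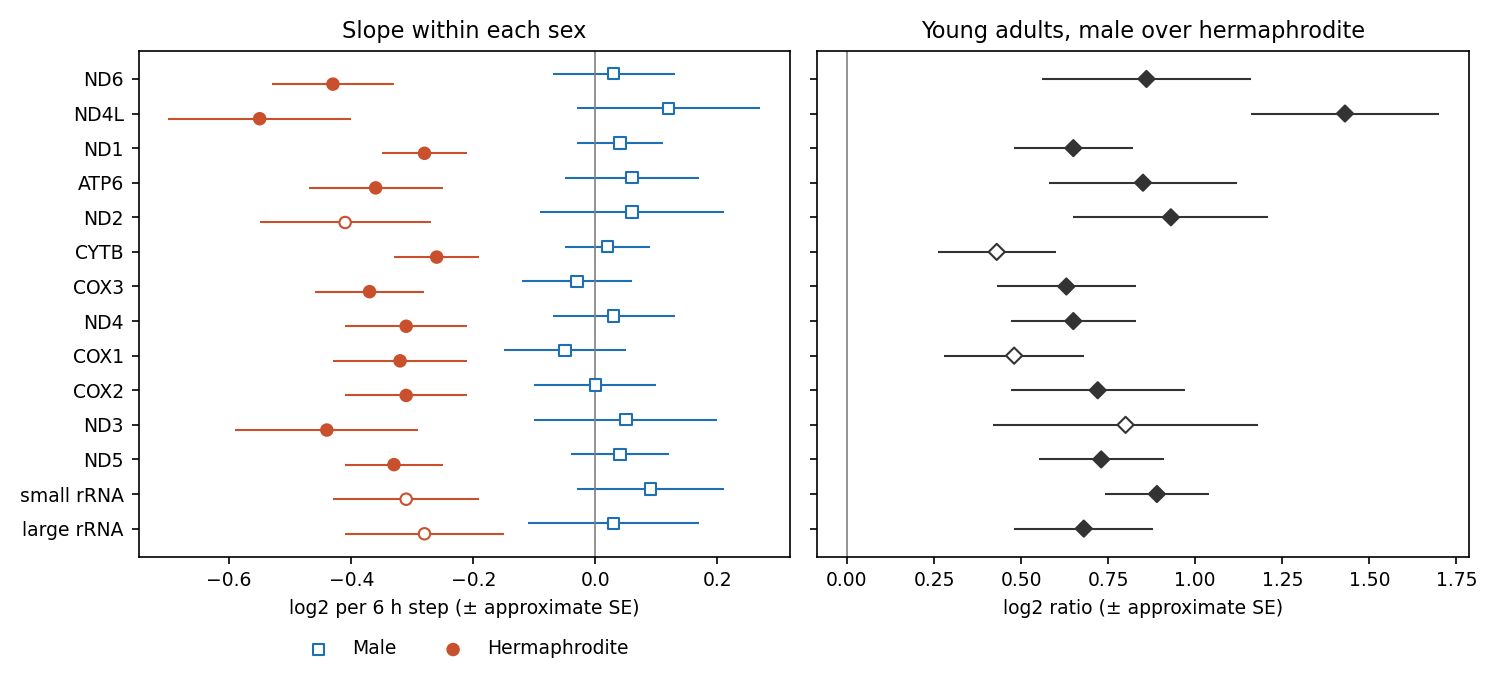
Fitted log2 slope per 6 h step for males (squares) and hermaphrodites (circles) on the left, and the log2 ratio of males to hermaphrodites in young adults on the right, for the 14 mitochondrial genes in genome order with the ribosomal RNA genes last. Bars are ± 1 approximate SE and filled symbols have an adjusted p under 0.05. Hermaphrodite slopes lie between -0.55 and -0.26, male slopes lie around 0, and all young adult ratios lie above 0.

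The ribosomal RNA genes encode the RNA of both subunits of the mitochondrial ribosome. The small RNA (MTCE.7, 696 bases) had 22000, 28100, 35100, 25100 and 31600 CPM in males, against 24300, 39900, 20300, 16300 and 14200 CPM in hermaphrodites. Both young adult males were above both young adult hermaphrodites, and the hermaphrodite library of 36 to 40 h was the highest of all. In young adults the log2 ratio was 0.89 ± 0.15 (approximate SE throughout, taken as the absolute log2 value over the root of the F statistic; n = 2 libraries per sex), the lowest adjusted p among the mitochondrial genes, 0.00414 in edgeR. Without either of the hermaphrodite young adults it no longer passed, with adjusted p-values of 0.0695 without 48 to 52 h and 0.139 without 54 to 58 h.

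The large RNA (MTCE.33, 952 bases) had 32300, 41800, 60100, 28900 and 43000 CPM in males, against 36700, 52700, 27700, 22800 and 22100 CPM in hermaphrodites. The male library of 42 to 46 h held the highest value and that of 48 to 52 h the lowest male value, so that males varied more here than for most messenger RNAs. The young adult log2 ratio was 0.68 ± 0.2 with an adjusted p of 0.0258 in edgeR. It was 0.37 without the male library of 54 to 58 h (adjusted p = 0.112) and 1.03 without the other young adult male. Without either hermaphrodite young adult it did not pass (0.212 and 0.25). The number of small RNA reads per large RNA read was 0.68, 0.672, 0.584, 0.871 and 0.736 in males, against 0.662, 0.757, 0.734, 0.715 and 0.645 in hermaphrodites. Its mean log2 ratio was 0.00 ± 0.25 (SD, n = 5 windows), with an exact sign-flip permutation p of 1.0.

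Complex I, the entry point for electrons from NADH, holds 7 of the 12 mitochondrial proteins. ND4L, a small membrane subunit, had the largest change of any mitochondrial gene: 12.3, 16.7, 20.1, 16.2 and 19.4 CPM in males, against 17.9, 30.7, 12.5, 6.62 and 6.55 CPM in hermaphrodites. The young adult hermaphrodites were the lowest libraries of the series for this gene, and these values rest on few reads, 106 and 97. In edgeR its hermaphrodite slope was -0.55 ± 0.15 per step (adjusted p = 0.0227) and the slopes differed by 0.64 ± 0.16 (adjusted p = 0.0487). In young adults its log2 ratio was 1.43 ± 0.27, or 2.7-fold, with an adjusted p of 0.00575.

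ND5, one of the large proton-pumping subunits, was read more deeply and showed the same course. It had 346, 415, 484, 388 and 407 CPM in males, against 452, 555, 368, 260 and 220 CPM in hermaphrodites. The last 2 hermaphrodite libraries were below every male library. Its slope in hermaphrodites was -0.33 ± 0.08 with an adjusted p of 0.0131 in edgeR, the lowest of the 14 genes. The slopes differed by 0.35 ± 0.08 (adjusted p = 0.0378), and in young adults males were higher by a log2 of 0.73 ± 0.18 (adjusted p = 0.0144).

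ND4, another pumping subunit, had 268, 311, 393, 272 and 321 CPM in males, against 326, 467, 258, 196 and 182 CPM in hermaphrodites. ND1, which lies near the quinone site, had 253, 266, 365, 272 and 287 CPM in males, against 322, 359, 237, 187 and 170 CPM in hermaphrodites. For both genes the late L4 male library was the highest male and the young adult hermaphrodites were below all males. Both had a young adult log2 ratio of 0.65, with edgeR adjusted p-values of 0.0233 for ND4 and 0.0197 for ND1, and falling slopes in hermaphrodites of -0.31 ± 0.1 and -0.28 ± 0.07 per step (adjusted p = 0.0359 and 0.0173).

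The remaining complex I genes were read less. ND6, a membrane subunit, had 38.7, 51.4, 48.2, 32.4 and 53.4 CPM in males, against 61.8, 62.6, 26.8, 24.9 and 22.3 CPM in hermaphrodites, so that larval hermaphrodites up to early L4 stood above every male and later ones below every male. It fell in hermaphrodites by 0.43 on the log2 scale per step (SE 0.1, adjusted p = 0.0138 in edgeR), and its young adult log2 ratio was 0.86 ± 0.3 (adjusted p = 0.0482). That ratio was 0.47 without the male library of 54 to 58 h (adjusted p = 0.297), and without the hermaphrodite library of 54 to 58 h it did not pass (0.0699).

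ND3, another small membrane subunit, had 14.8, 22.7, 25.0, 12.1 and 23.5 CPM in males, against 25.3, 33.8, 15.3, 9.74 and 10.7 CPM in hermaphrodites. The male library of 48 to 52 h was close to the young adult hermaphrodites and that of 54 to 58 h was not, and its young adult log2 ratio of 0.8 ± 0.38 did not pass. ND2, a pumping subunit and the lowest gene per kb, had 13.4, 17.9, 18.9, 19.7 and 15.5 CPM in males, against 19.9, 31.9, 11.6, 8.24 and 10.2 CPM in hermaphrodites. Males were higher in young adults by a log2 of 0.93 ± 0.28 with an adjusted p of 0.0308 in edgeR. The annotated ND2 overlaps the transfer RNA gene before it by 28 bases, the longest overlap among the 36 genes.

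CYTB, the only mitochondrial subunit of complex III, had the smallest hermaphrodite slope and young adult ratio of the 14 genes. It had 1320, 1470, 1760, 1400 and 1450 CPM in males, against 1720, 2040, 1390, 1160 and 944 CPM in hermaphrodites. Its male values were within a narrow range, and only the young adult hermaphrodites lay below all of them. The hermaphrodite slope was -0.26 ± 0.07 per step (adjusted p = 0.0216 in edgeR), while the young adult log2 ratio of 0.43 ± 0.17 did not pass.

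Complex IV, cytochrome c oxidase, has its catalytic core in the mitochondrial genome. COX1, which carries the haem and copper site where oxygen is reduced, had 3130, 3980, 2640, 2990 and 3030 CPM in males, against 3500, 5320, 2370, 2540 and 1770 CPM in hermaphrodites. The male library of 42 to 46 h was the lowest male here, while for 8 other genes it was the highest. COX1 had a hermaphrodite slope of -0.32 ± 0.11 (adjusted p = 0.0468 in edgeR), and its young adult log2 ratio was 0.48 ± 0.2 and did not pass.

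COX3, a core subunit without metal centres, had 1470, 1760, 1450, 1340 and 1500 CPM in males, against 1760, 2400, 1150, 1070 and 773 CPM in hermaphrodites. The 3 later hermaphrodite libraries were below every male library. Its young adult log2 ratio was 0.63 ± 0.2 (adjusted p = 0.0367 in edgeR), and 0.4 without the hermaphrodite library of 54 to 58 h (adjusted p = 0.268). COX2, which takes electrons from cytochrome c, had 388, 425, 361, 295 and 452 CPM in males, against 380, 570, 297, 245 and 210 CPM in hermaphrodites. Its young adult males lay apart from each other and above the hermaphrodites, with a log2 ratio of 0.72 ± 0.25 (adjusted p = 0.0492). It was 0.38 without the male library of 54 to 58 h (adjusted p = 0.17), 1.09 without the other young adult male, and 0.6 without the hermaphrodite library of 54 to 58 h (adjusted p = 0.122).

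ATP6, the a subunit through which protons pass in the ATP synthase, had 136, 159, 182, 118 and 187 CPM in males, against 178, 235, 109, 81.1 and 88.3 CPM in hermaphrodites. The 3 later hermaphrodite libraries were below every male library. Its hermaphrodite slope was -0.36 ± 0.11 (adjusted p = 0.0288 in edgeR), and males were higher in young adults by a log2 of 0.85 ± 0.27 (adjusted p = 0.0341). Without the male library of 54 to 58 h that ratio was 0.49 and did not pass (0.12).

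Within the mitochondrial messenger RNA no gene's share was called different between the sexes. COX1 made up 40.4 ± 4.07% of the protein gene reads in males and 41.2 ± 2.64% in hermaphrodites, COX3 19.3 ± 0.572% and 18.9 ± 1.04%, and CYTB 19.1 ± 2.36% and 20.0 ± 2.06% (SD, n = 5 libraries each). Exact sign-flip permutation tests over the 5 windows gave no adjusted p below 0.656 for the 12 genes, in a design whose smallest raw p is 0.0625. The library that departed most was the male one of 42 to 46 h, in which COX1 made up 34.1% of these reads, against 37.9% in the hermaphrodite of that window, while CYTB made up 22.7% there, against 22.2%. ND4L had its lowest shares in the young adult hermaphrodites, 0.114% and 0.148%, where the young adult males had 0.226% and 0.25%.

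The mitochondrial messenger RNA was next set against the 50 nuclear genes listed for the same complexes and complex II, all of which were tested. The summed CPM of the 12 mitochondrial genes over that of the 50 nuclear genes was 0.487, 0.622, 0.618, 0.487 and 0.619 in males, against 0.509, 0.865, 0.487, 0.399 and 0.32 in hermaphrodites. Hermaphrodites thus ended with the lowest ratio of the series after having had the highest. The mean log2 ratio between the sexes was 0.21 ± 0.53 (SD, n = 5 windows), with an exact sign-flip permutation p of 0.5.

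In each of the 4 complexes with mitochondrial subunits the hermaphrodite ratio was highest at 36 to 40 h, and it was below the male ratio from 42 to 46 h on. For complex IV the ratio was 4.31, 5.32, 4.87, 3.82 and 5.3 in males, against 4.38, 7.94, 3.72, 3.14 and 2.25 in hermaphrodites. For complex I it was 0.263, 0.292, 0.452, 0.295 and 0.359 in males, against 0.3, 0.444, 0.291, 0.206 and 0.199 in hermaphrodites. In complex I the highest ratio of the series was that of the late L4 males, whereas in complex IV it was that of the early L4 hermaphrodites. For complex III it was 0.456, 0.539, 0.776, 0.555 and 0.624 in males, against 0.552, 0.874, 0.651, 0.53 and 0.451 in hermaphrodites. For the ATP synthase it was 0.0196, 0.026, 0.0314, 0.0173 and 0.034 in males, against 0.0218, 0.0355, 0.0182, 0.0115 and 0.0133 in hermaphrodites. These sums are not divided by length, so they compare libraries within a complex and not the complexes with each other.

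**Figure D4:**
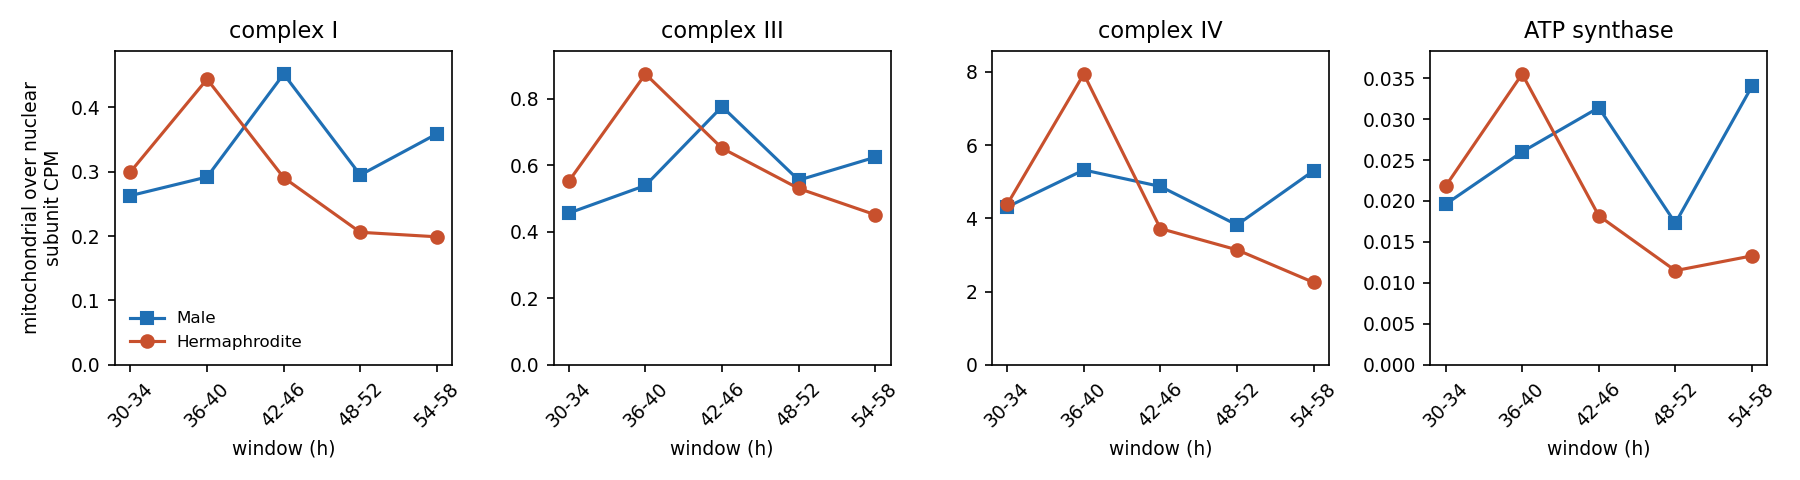
Summed CPM of the mitochondrial subunit genes over that of the listed nuclear subunit genes, by window after hatching (h), for complex I, complex III with cytochrome c, complex IV and the ATP synthase, with 1 point per library for males (squares) and hermaphrodites (circles). In each complex the hermaphrodite ratio is highest at 36 to 40 h and lies below the male ratio in young adults.

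Few of the nuclear subunit genes were called different between the sexes. Over the course edgeR called 1 of 50 higher in males and 0 lower, beside 15.3% and 3.56% of all genes. No slope in males and no difference of slopes was called by edgeR, beside 0.59% and 15.8% of all genes. At a share of 0.59%, the lack of called male slopes says little about these genes. An unadjusted p under 0.05 was found for 8 and 6 of 50. DESeq2 called 4 slopes in males and 6 differences, and limma-voom called 2 and 4. In hermaphrodites 5 rose, 7 fell and 38 did not pass, with a median slope of -0.09 beside -0.15 over all genes. Of all genes 20.9% were called rising and 16.9% falling, so the rising count was below its share and the falling count near it. In young adults 3 were higher in males and 0 lower, where 33% and 29.4% of all genes were called, with a median log2 ratio of -0.02 beside 0.31 over all genes; 4 of 50 had an unadjusted p under 0.05, and limma-voom called 4 lower. These counts depended on scaling and libraries. With library size alone as the scaling 28 of 50 fell in hermaphrodites, and 3 fell without the hermaphrodite library of 54 to 58 h. Scaling by library size alone called 11 higher in male young adults, the count was 6 without the hermaphrodite library of 48 to 52 h, and it was 1 without any other young adult library. Without the male library of 48 to 52 h, 3 were called lower in males.

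Several of the called genes are paralogues of each other with slopes of opposite sign. They were paired after their values were seen, for those opposite slopes, so they are given as a description and say nothing of paralogues in general. asb-1, a germline form of ATP synthase subunit b, had 109, 142, 192, 212 and 209 CPM in males, against 98.8, 140, 186, 279 and 306 CPM in hermaphrodites. Its sister gene asb-2 had 525, 459, 339, 434 and 375 CPM in males, against 625, 463, 375, 293 and 226 CPM in hermaphrodites. In hermaphrodites asb-1 rose by a log2 of 0.43 ± 0.06 per step (adjusted p = 0.00164 in edgeR) while asb-2 had a slope of -0.36 ± 0.06 (adjusted p = 0.00253). In young adults asb-2 was higher in males by 0.64 ± 0.21 (adjusted p = 0.0362), and asb-1 had a log2 ratio of -0.47 ± 0.17 that did not pass (0.0522).

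Pairs of this kind were also found in complexes I, II and III. sdha-2 and sdha-1 encode forms of the flavoprotein of complex II, and their hermaphrodite slopes were 0.43 ± 0.06 and -0.26 ± 0.06. nduf-2.2 and gas-1, forms of a core subunit of complex I, had slopes of 0.42 ± 0.07 and -0.38 ± 0.06. ucr-2.3 had a slope of 0.49 ± 0.09, whereas ucr-2.2 and ucr-2.1, other forms of the same complex III subunit, had -0.34 ± 0.06 and -0.33 ± 0.07; all of these passed edgeR's test with adjusted p-values between 0.00155 and 0.0122. The remaining 3 genes called were cox-4 of complex IV, which rose by 0.26 ± 0.09, asg-2 of the ATP synthase with -0.42 ± 0.06 (its paralogue asg-1, at 0.2, did not pass), and nduf-9 of complex I with -0.15 ± 0.05. All 6 of the 50 genes that lie on the X chromosome fell (gas-1, sdha-1, ucr-2.1, ucr-2.2, asb-2 and asg-2), while of the 44 on autosomes 5 rose and 1 fell. Among all genes tested, 28% of those on the X fell in this fit and 4.64% rose. On autosomes 15% fell and 23.7% rose. This split was looked at after the values were seen. Reads shared by near-identical copies would have been given to no gene, so the levels of such pairs are uncertain to that extent.

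Cytochrome c, the carrier between complexes III and IV, showed the largest called difference between the sexes among the nuclear subunits. cyc-2.2 had 28.7, 63.2, 93.8, 135 and 147 CPM in males, against 1.98, 12.3, 16.5, 4.06 and 0.608 CPM in hermaphrodites. Every male library was above every hermaphrodite library, a separation that is not given over all genes here, and the last hermaphrodite library held 9 reads. The log2 ratio of cyc-2.2 was 4.12 ± 0.84 over the course (adjusted p = 0.0267 in edgeR) and 5.9 ± 0.79 in young adults (adjusted p = 0.0019). The paralogue cyc-2.1, shown for comparison after the values were seen, had 809, 752, 562, 569 and 553 CPM in males, against 911, 602, 530, 532 and 534 CPM in hermaphrodites, with a log2 ratio over the course of 0.08 ± 0.16 that did not pass. Neither gene had a called slope in hermaphrodites, where the values were -0.6 for cyc-2.2 and -0.18 for cyc-2.1.

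**Figure D5:**
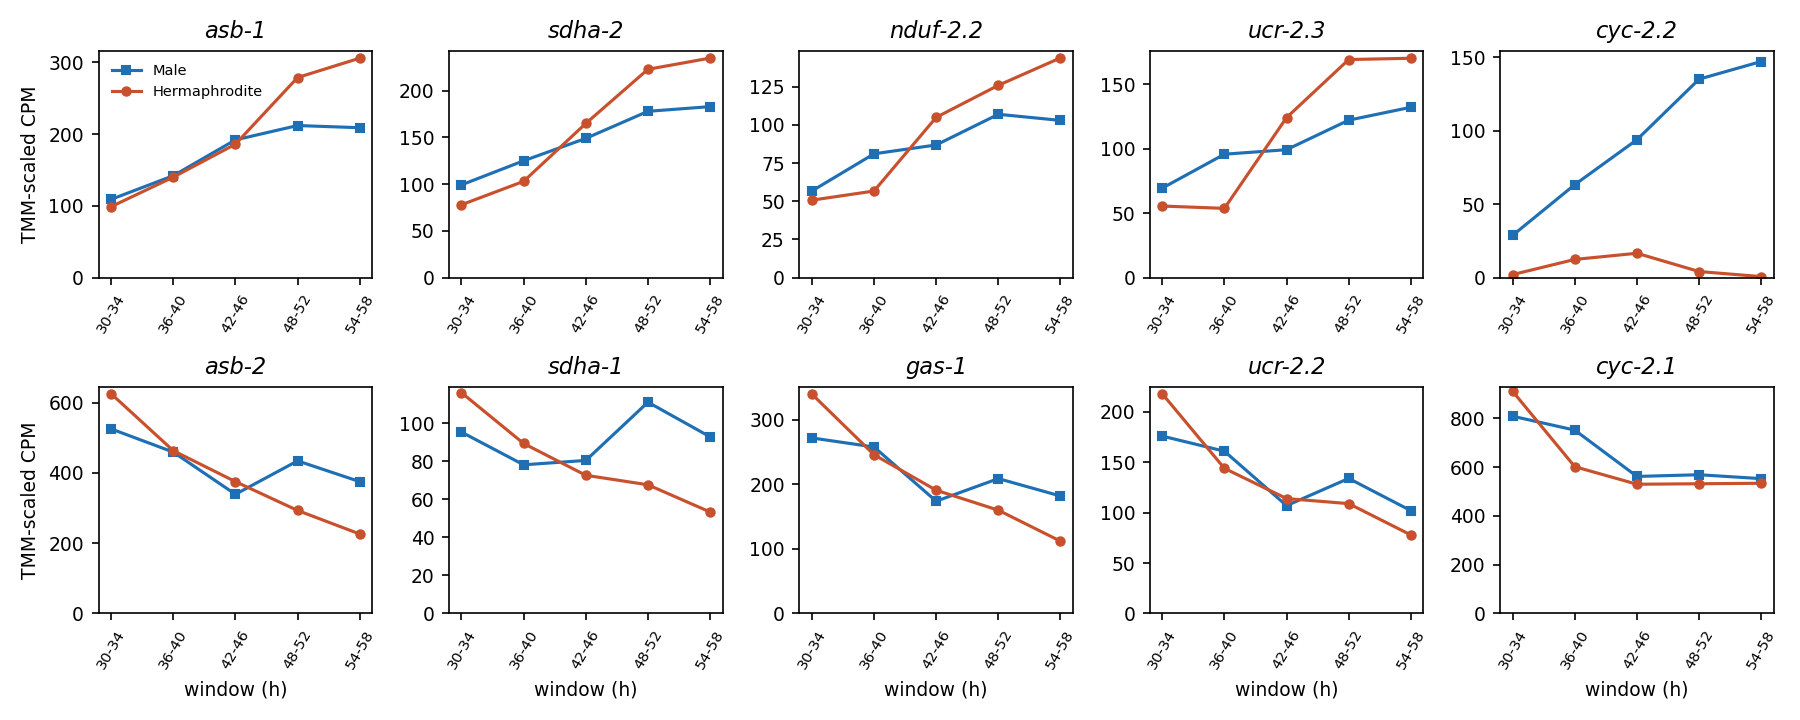
TMM-scaled CPM by window after hatching (h) for paralogous nuclear subunit genes, each pair in 1 column, with 1 point per library for males (squares) and hermaphrodites (circles). In hermaphrodites asb-1, sdha-2, nduf-2.2 and ucr-2.3 climb while asb-2, sdha-1, gas-1 and ucr-2.2 decline, and cyc-2.2 is higher in every male library.

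The nuclear genes that serve the mitochondrial genome differed between the sexes in the other direction in young adults. Of 7 tested genes for keeping mitochondrial DNA and making its RNA (8 were listed), 6 were lower in males and 1 was higher, where 29.4% of all genes were called lower and 33% higher. The median log2 ratio was -1.15 beside 0.31 over all genes. hmg-5, the DNA-packaging protein of the nucleoid, had 17.4, 19.3, 17.5, 15.6 and 19.5 CPM in males, against 21.1, 25.0, 39.7, 55.6 and 61.2 CPM in hermaphrodites. Male values stayed level below the hermaphrodite ones, which climbed with each window. In edgeR its young adult log2 ratio was -1.73 ± 0.23 (adjusted p = 0.00193) and its hermaphrodite slope 0.42 ± 0.07 (adjusted p = 0.00349), while the difference of slopes, -0.42 ± 0.12, did not pass (0.0621).

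polg-1, the polymerase that copies mitochondrial DNA, had 8.43, 12.5, 15.7, 11.6 and 9.33 CPM in males, against 13.4, 15, 18.6, 26.3 and 34.3 CPM in hermaphrodites. It was lower in young adult males by a log2 of -1.53 ± 0.28 (adjusted p = 0.00487 in edgeR). rpom-1, the mitochondrial RNA polymerase, had 32.4, 33.0, 33.1, 33.7 and 24.8 CPM in males, against 42.7, 45.7, 51.6, 64.5 and 65.7 CPM in hermaphrodites. Hermaphrodites were higher in every window; the young adult log2 ratio was -1.15 ± 0.24 (adjusted p = 0.0076) and the hermaphrodite slope of 0.17 ± 0.06 did not pass (0.0561). twnk-1, the helicase of the mitochondrial replication fork, was the gene higher in males, by a log2 of 3.45 ± 0.81 (adjusted p = 0.0121), and was named after its value was seen. It had 41 and 24 reads in the young adult males, against 5 and 2 reads in the young adult hermaphrodites, and it was not called without the male library of 48 to 52 h. The count of lower genes was 4 without the male library of 54 to 58 h.

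The mitochondrial ribosomal proteins, which assemble on the ribosomal RNAs described above, were mostly lower in young adult males. Of 64 tested (65 were listed) DESeq2 called 60 lower and 0 higher, and limma-voom 61 and 0. In edgeR 60 were lower and 0 higher, beside 29.4% and 33% of all genes. The median log2 ratio was -1.08, beside 0.31 over all genes. Leaving out the earlier of the young adult male libraries gave 25, and leaving out the later one gave 29. Over the course 6 were lower in males in edgeR, beside 3.56% of all genes, and 43 had an unadjusted p under 0.05. DESeq2 called 40 lower and limma-voom 28, and both tools also called more of all genes than edgeR. mrpl-9 had 21.4, 17.5, 21.4, 16.5 and 16.9 CPM in males, against 33.6, 39.5, 39.7, 55.8 and 57.6 CPM in hermaphrodites, with a young adult log2 ratio of -1.76 ± 0.21 (adjusted p = 0.0014).

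The synthetases and the genes of shape and removal were also mostly lower, with medians of -1.01 and -1.09 beside 0.31 over all genes, of which 29.4% were called lower and 33% higher. Of 12 tested synthetases that charge the mitochondrial transfer RNAs (14 were listed), 10 were lower in young adult males and 0 higher; sars-2 had a log2 ratio of -1.73 ± 0.36 (adjusted p = 0.00837 in edgeR). Leaving out the earlier young adult male library gave 3, and the later one 4. All 9 listed genes for mitochondrial shape, transport and removal, paternal mitochondria included, were lower in young adult males, and 6 were without either of the male young adult libraries. Among them were allo-1, the adaptor that marks sperm-derived organelles for removal, at -1.55 ± 0.22, and the kinase gene pink-1 at -1.49 ± 0.2. Both also had the lower slope in males, by -0.55 ± 0.11 and -0.5 ± 0.11 per step (adjusted p = 0.0305 and 0.0381 in edgeR). In that fit 10.2% of all genes were called with the lower slope in males. With 1 library or window left out, all genes called in it ranged over 0 to 3000.

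Of 13 quality control genes 9 were lower in young adult males and 1, the protease gene clpp-1, was higher by 0.94 ± 0.22 (adjusted p = 0.0114 in edgeR), beside 29.4% of all genes lower and 33% higher. The median was -0.8, against 0.31 over all genes. Scaling by library size alone gave 5 lower and 2 higher, and the count of lower genes was 5 with the earlier young adult male library left out and 6 with the later one left out; clpp-1 was called in neither case. hsp-60, a chaperonin of the mitochondrial matrix, had 406, 236, 280, 303 and 219 CPM in males, against 801, 457, 561, 690 and 631 CPM in hermaphrodites. Every male library was below every hermaphrodite library, a separation that is not given over all genes here. The log2 ratio of hsp-60 over the course was -1.13 ± 0.18 (adjusted p = 0.0156 in edgeR), where 3.56% of all genes were called lower in males. hsp-6, the matrix Hsp70, had 434, 247, 464, 366 and 410 CPM in males, against 732, 446, 553, 808 and 768 CPM in hermaphrodites, with a log2 ratio of -0.78 ± 0.19 (adjusted p = 0.0332).

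Tissue markers moved over the same windows, and their part in the results above was not tested. For the counts below, 20.9% of all genes were called rising and 16.9% falling in hermaphrodites. In young adults 33% of all genes were called higher in males. The summed CPM of 10 oocyte genes was 158, 273, 487, 510 and 555 in males, against 142, 505, 4250, 10700 and 13600 in hermaphrodites, where 10 of 10 rose. The 10 germline genes summed to 397, 465, 510, 556 and 495 CPM in males, against 443, 630, 1150, 2070 and 2190 CPM in hermaphrodites, where 10 of 10 rose. The 10 sperm genes summed to 280, 524, 820, 1110 and 1300 CPM in males, against 41.5, 163, 131, 40.7 and 8.3 CPM in hermaphrodites, and 10 of 10 were higher in young adult males. The 10 body muscle genes summed to 10800, 10400, 13900, 17600 and 12800 CPM in males, against 11500, 9180, 7560, 7570 and 5120 CPM in hermaphrodites; 5 of 10 fell in hermaphrodites and 6 of 10 were higher in young adult males. The 10 intestine genes, yolk genes included, summed to 3350, 2790, 2770, 3540 and 2550 CPM in males, against 5200, 4370, 11300, 28800 and 29200 CPM in hermaphrodites, with 2 rising and 3 falling there. In hermaphrodites the summed mitochondrial messenger RNA first rose, from 8760 CPM at 30 to 34 h to 12100 CPM at 36 to 40 h. Over that step the oocyte, germline and sperm sums rose, and the muscle and intestine sums fell. By 54 to 58 h the messenger RNA had fallen to 4410 CPM. By then the oocyte and germline sums had risen, and the muscle and sperm sums had fallen. The intestine sum had risen too, but most of its 29200 CPM lay on the yolk genes vit-2 (9170 CPM) and vit-6 (16400 CPM). These were the 2 intestine genes called rising, and the median slope of the 10 was -0.28, beside -0.15 over all genes. A link between these courses was not tested.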

How the data were processed

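The deposited files give raw read counts per gene, 1 table per library; per the labels' protocols total RNA was extracted from whole animals with TRIzol and made into Illumina libraries, and per the submitters' processing notes CASAVA 1.8 and HTSeq were used. For aligner settings, genome build, strand use and RNA selection, the entry is: not given in the sources used here. Reads that HTSeq assigns to no single gene are not in the gene counts. Names and lengths came from Ensembl release 115 (WBcel235) and RefSeq; 46183 of 46589 names matched. No gene sequences were at hand, so none are shown.

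Genes were kept at 1 CPM or more of the unscaled library total in at least 2 libraries (15924 genes, at least 99.88% of gene reads). Counts were then scaled with TMM (edgeR 4.0.16 in R 4.3.3) and tested with edgeR's quasi-likelihood test. P-values were Benjamini-Hochberg adjusted over all genes tested, with a threshold of 0.05. The fits were sex with the window as a block, a slope per 6 h step within each sex, the difference of slopes with the block, and young adults alone without a block (4, 6, 3 and 2 residual degrees of freedom). The labels share window numbers between the sexes, and the deviations of same-numbered libraries from their sex mean correlated at 0.43, 0.47, 0.43, 0.42 and 0.25. Shares were compared by exact sign-flip permutation tests over windows. Named nuclear genes are up to 2 called per list and direction with the largest change and a mean of at least 5 CPM, plus asb-1, asb-2, hmg-5, polg-1, rpom-1, hsp-6 and hsp-60; others are marked as named after their values were seen. The members and lists were chosen with earlier results of these data known. Scripts were tested on simulated data. Alternatives were DESeq2 1.42.0, limma-voom (limma 3.58.1), RLE, library size and nuclear-gene scaling, other filters, a threshold of 0.01, and leaving out libraries or windows.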

Additional observations from a re-analysis of the deposited data

Results flagged for a closer look

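The slopes of 2 mitochondrial genes differed between the sexes in the test of the difference itself, a separate fit with the window as a block, so that its value is not exactly the difference of the slopes fitted within each sex. For ND5, a pumping subunit of complex I, the male slope was 0.04 and the hermaphrodite slope -0.33 per step on the log2 scale, and the blocked fit gave a difference of 0.35. For ND4L, a small membrane subunit of the same complex, the male slope was 0.12 and the hermaphrodite slope -0.55, and the blocked fit gave 0.64. Neither was called without any 1 library of a window after 30 to 34 h. No library lay far from the other 4 of its sex in any of the 64 groups of values examined for such a gap with Dixon's test.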

How the results depend on the processing

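Counts over all genes moved with the tool, the threshold and the libraries. For the sex difference over the course the stricter filter (at least 5 CPM in 5 libraries) called 1350 genes, DESeq2 5920, limma-voom 5258 and a threshold of 0.01 144, against 3003. For the male slope these were 61, 2007, 931 and 0. For the hermaphrodite slope the threshold of 0.01 called 2931. For the difference of slopes library size scaling called 1407, no filter 1666, DESeq2 5685, limma-voom 3973 and the threshold of 0.01 0. Of the 14 mitochondrial genes, those falling in hermaphrodites numbered 7 with RLE, 7 with no filter and 0 at 0.01. Those with the higher slope in males numbered 1 with RLE, 1 with no filter, 9 with the stricter filter, 11 with DESeq2, 12 with limma-voom and 0 at 0.01. Those higher in young adult males numbered 4 with DESeq2, 2 at 0.01 and 6 with the replicate block. Nuclear subunits higher in young adult males numbered 11 with library size scaling, 6 with the stricter filter and 1 at 0.01, and those lower 2 with no filter and 4 with limma-voom. Lower ribosomal proteins numbered 32 at 0.01.

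Some uncalled values changed sign. Over the course CYTB was 0.00 with no filter. The male slope of COX2 was 0.06 with RLE, 0.01 with library size, 0.03 with no filter, 0.00 with the stricter filter and 0.06 with DESeq2, while COX3 was 0.03 and COX1 0.01 with both RLE and DESeq2. The causes were not tested. Scaling by library size moved the median of all genes over the course to 0.32, against 0.21, and in young adults to 0.62, against 0.31. Over the course the median was 0.36 with no filter and 0.00 with the stricter filter, and in young adults 0.00 and -0.02; a filter also changes which genes the median covers.

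Leaving out 1 library or window at a time gave ranges. All genes called ranged over 76 (with the earlier young adult males left out) to 3095 for the course, 0 to 298 for the male slope, 1991 to 6645 for the hermaphrodite slope, 0 to 3000 for the difference of slopes and 6494 to 9810 in young adults. Mitochondrial genes called ranged over 0 to 13 falling in hermaphrodites, 0 to 6 for the difference of slopes and 2 to 10 in young adults. Young adult nuclear subunits ranged over 1 to 6 higher and 0 to 3 lower, and lower ribosomal proteins over 25 to 58. The log2 ratio over the course ranged over -0.07 to 0.40 for ND1, -0.08 to 0.50 for ATP6, -0.19 to 0.51 for ND2, -0.23 to 0.22 for CYTB, -0.17 to 0.35 for COX3, -0.11 to 0.41 for ND4, -0.21 to 0.26 for COX1, -0.10 to 0.55 for ND6, -0.25 to 0.40 for ND3, -0.12 to 0.38 for ND5, -0.12 to 0.42 for COX2 and -0.03 to 0.77 for ND4L. The male slope ranged over -0.14 to 0.11 for COX2, -0.09 to 0.17 for the large ribosomal RNA, -0.03 to 0.18 for ATP6, -0.08 to 0.16 for ND6, -0.07 to 0.21 for ND3, -0.02 to 0.13 for ND1, -0.05 to 0.18 for ND2, -0.04 to 0.11 for CYTB, -0.04 to 0.14 for ND4, -0.04 to 0.12 for ND5, -0.08 to 0.05 for COX3 and -0.11 to 0.02 for COX1. The log2 ratio of small to large ribosomal RNA ranged over -0.07 to 0.09, and that of the message shares over -0.13 to 0.20 for ND2, -0.06 to 0.00 for COX1 and -0.08 to 0.15 for ND3.

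Depth limits the transfer RNA genes, which had 4 reads in all, and ND4L, with 97 reads in its lowest library. Intervals and SEs cover these libraries alone.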
